A study of Mus musculus with 4 samples.

Results

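The 10 gene models described here are short predicted RNAs that carry only placeholder symbols (Gm followed by digits) among the 49568 gene symbols of the deposited table. They were chosen by symbol from models of about 285 to 338 bases, with their migrasome and cytosol values in view: Gm22701, Gm23153, Gm24105, Gm24514 and Gm26461 were picked as higher in migrasome and Gm22058, Gm23973, Gm24146, Gm24447 and Gm26035 as lower. Their migrasome against cytosol values are therefore given as a description, with no test. The series profiled total RNA of mouse origin by sequencing in 2 libraries of purified migrasomes, organelles that grow along the retraction fibres trailing a migrating cell and are then shed, and 2 libraries of cytosol. The labels give no cell type, strain, treatment or age for either group, and separate cultures are not mentioned, so the p-values below cover no more than the variation among these 4 libraries, part or all of which may be technical. Reads assigned to genes numbered 5228713 and 5171092 in migrasome replicates 1 and 2, against 7529136 and 8608369 in cytosol replicates 1 and 2. Of the 7 fibroblast markers, Vim passed the limma test as higher in migrasome, and 4 (Col1a1, Col1a2, Pdgfra and Pdgfrb) passed as lower. The 7 summed to between 58889 and 72835 in the migrasome libraries and between 48240 and 52564 in the cytosol libraries. Most of each sum was Vim and S100a4, with means of 29564 and 33718 in migrasome and 15303 and 23663 in cytosol. Epithelial markers stayed at or under 2.83 and haematopoietic markers at or under 8.92 in each library. The part of all these markers in the values below was not tested.

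All 10 models aligned to 1 of 2 well known RNAs, 9 of them over a part and 1 over nearly its whole length. 7SL RNA is the RNA backbone of the signal recognition particle, which binds ribosomes as they begin a secreted or membrane protein and brings them to the endoplasmic reticulum. 7SK RNA is a nuclear RNA that, with Hexim, Larp7 and Mepce proteins, holds the transcription elongation kinase P-TEFb (Cdk9 with cyclin T) inactive. RNA polymerase III makes both RNAs, and mammalian genomes hold many copies of each, most of them retroposed and often incomplete at the 3′ end. Sequences of the models were taken from the GENCODE M21 transcripts of GRCm38, in which all 10 are annotated as misc_RNA, and aligned by blastn to the 7SL gene Rn7s1 and the 7SK gene Rn7sk. The 5 models picked as higher in migrasome each aligned to Rn7s1, and the 5 picked as lower each aligned to Rn7sk. No model matched both genes. The alignment used no expression value, but the directions were fixed by the choice of the models, so this match is a description and not independent support.

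The next sequences show how far the 7SK-like copies go, 5′ to 3′ on the strand of each gene. In Rn7sk (GRCm38 chr9:78175303-78175633, minus strand) the capitals mark the longest stretch that it shares without a change with all 5 7SK-like models. In Gm24447 (chr15:93234363-93234700, plus strand) and Gm26035 (chrX:152923453-152923760, minus strand) they mark the stretch that aligned to Rn7sk. Gm24447 is shown because its aligned stretch is identical to 7SK, and Gm26035 because its aligned stretch stops earliest in 7SK. The first 300 bases of each are shown.
Rn7sk: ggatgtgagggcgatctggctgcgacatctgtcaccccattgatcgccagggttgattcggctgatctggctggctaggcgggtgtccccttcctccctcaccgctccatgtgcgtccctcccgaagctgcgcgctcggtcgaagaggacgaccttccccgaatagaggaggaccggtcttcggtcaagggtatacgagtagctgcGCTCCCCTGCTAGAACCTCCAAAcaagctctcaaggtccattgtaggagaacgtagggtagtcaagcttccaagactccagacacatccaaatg
Gm24447: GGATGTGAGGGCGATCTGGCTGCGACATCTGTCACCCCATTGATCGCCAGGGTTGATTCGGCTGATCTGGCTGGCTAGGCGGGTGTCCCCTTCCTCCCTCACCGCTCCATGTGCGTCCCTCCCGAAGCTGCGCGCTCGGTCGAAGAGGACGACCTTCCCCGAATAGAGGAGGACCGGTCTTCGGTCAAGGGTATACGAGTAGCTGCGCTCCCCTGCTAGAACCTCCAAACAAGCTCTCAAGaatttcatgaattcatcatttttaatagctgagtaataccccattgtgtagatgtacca
Gm26035: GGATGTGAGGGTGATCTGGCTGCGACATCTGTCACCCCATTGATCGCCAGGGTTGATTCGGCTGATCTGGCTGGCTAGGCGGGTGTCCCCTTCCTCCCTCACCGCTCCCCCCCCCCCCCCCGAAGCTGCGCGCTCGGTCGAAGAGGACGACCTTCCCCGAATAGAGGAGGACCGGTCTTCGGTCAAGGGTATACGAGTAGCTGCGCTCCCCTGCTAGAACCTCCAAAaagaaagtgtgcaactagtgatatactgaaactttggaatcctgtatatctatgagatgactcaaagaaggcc

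By their best alignment, most of the models were 5′ copies that stopped short of the 3′ part of the parent RNA. Only the best stretch of each model was kept, so a separate match further 3′ would not appear. Gm24105 aligned over all of its 293 bases, at 91.7% identity. The other 7SL-like models aligned from their 5′ part up to base 201 of Rn7s1 in Gm26461 (96.5% identity), 202 in Gm22701 (87.6%), 214 in Gm23153 (95.2%) and 235 in Gm24514 (94.9%), out of 300 bases. The 7SK-like models aligned up to base 229 of Rn7sk in Gm26035 (96.1%), 237 in Gm24146 (97.5%), 241 in both Gm24447 (100%) and Gm22058 (93.1%) and 244 in Gm23973 (96.2%), out of 331 bases. After these points between 51 and 100 bases of each of the other 9 annotated models lay outside the aligned stretch. The named gene Rn7s6 had the same shape, with 98.6% identity up to base 214 of Rn7s1, whereas Rn7s2 was identical to Rn7s1 over all 300 bases. Reads from Rn7s1 and Rn7s2 therefore cannot be told apart by sequence within the gene.

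**Figure D1:**
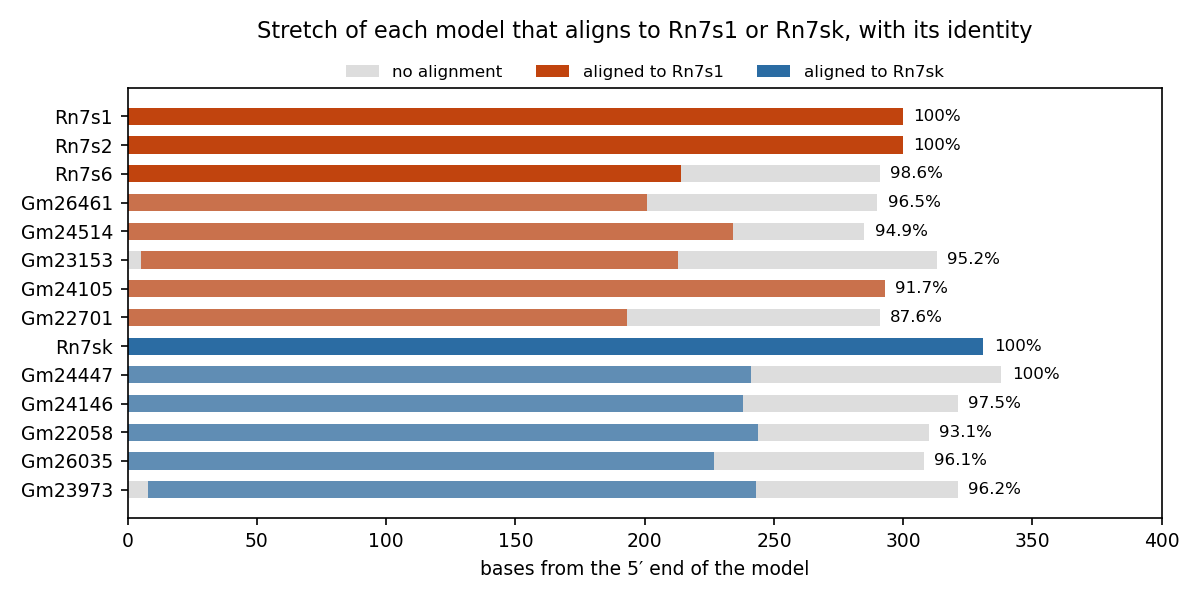
Each bar is 1 gene model drawn to scale in bases from its 5′ end. The best stretch aligned to Rn7s1 (orange) or Rn7sk (blue) is coloured and the rest is grey, with the identity of that stretch printed at its right. Gm24105 is coloured over its whole length, while the other 9 models end in a grey 3′ part.

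The stretch shared by the 7SK-like models was seen in few other models. The 23 bases GCTCCCCTGCTAGAACCTCCAAA (bases 207 to 229 of Rn7sk) were found on either strand in 11 of 546 unnamed misc_RNA models (2.01%), all of them 7SK-like. These 11 include the 5 models from which the stretch was taken, which hold it by construction. The motif GATC, which reads the same on both strands and which lies in the 5′ hairpin of 7SK that Hexim1 binds, occurred 3 times in the first 100 bases of Rn7sk and of each of the 5 7SK-like models. At least 3 occurrences there were seen in 4.76% of the 546 models, the 5 included, and in 8.65% of the other 185 7SK-like models. Those 185 had a median identity of 73.95% to Rn7sk over their aligned stretch. The closest copies among them were not counted apart, for the stretch or for GATC. These matches describe letters in a window and do not show binding.

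The models also differed in how much of their sequence occurred in other annotated transcripts. A window of 50 bases was counted as shared when it occurred without a change, on either strand, in another of the 141767 GENCODE M21 transcripts. The genome outside these transcripts was not searched, so windows not counted as shared may still occur elsewhere in it. Of the windows in Gm24447, 66.4% were shared, and in Gm26035 41.7%, in Gm26461 22.8%, in Gm24146 15.8% and in Gm23153 15.2%. The remaining models ranged from 10.3% in Gm22058 through 7.63% in Gm24514, 4.92% in Gm24105 and 4.55% in Gm22701 to 2.57% in Gm23973. For Gm24447, Gm26461 and Gm23973 every shared window lay in the named 7SL or 7SK genes. Reads of that length that fall in shared windows cannot be assigned to 1 gene, and the sources used here give neither the read length nor how multiply mapping reads were counted. The values of these models may therefore hold reads of the named genes, whose part was not tested.

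Values are deposited normalised read counts, and each difference is the migrasome mean less the cytosol mean of log2(value + 1), a scale that understates the change of low genes, with the standard error (SE) from limma's fit over all genes. In pooled RNA, fewer vesicles or cells with an RNA and less of it in each cannot be told apart. Of 10860 genes tested by limma with Benjamini-Hochberg adjustment, 943 (8.68%) passed 0.05 as higher in migrasome and 1919 (17.7%) as lower. With every library scaled to the same total these counts were 322 and 2522, and with quantile normalization 1194 and 1403. The median difference of all genes was -0.27 and 0.11 under those scalings, beside -0.00430 as deposited. Quantile normalization also moved the models, with Gm22701 at 2.79, Gm24105 at 3.33 and Gm26035 at -1.91, against 2.08, 2.77 and -2.42 as deposited. All 5 7SL-like models were on the called side as higher and all 5 7SK-like models as lower, which is no result, because this contrast chose them. In 33.3% of tested genes both migrasome libraries lay above both cytosol libraries, and in 36.3% both lay below.

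The 2 abundant 7SL-like models were Gm26461 and Gm24514. Gm26461 (chromosome 9, 88553236 to 88553525, plus strand) stood at 1564 and 2045 in migrasome replicates 1 and 2, against 383 and 272 in cytosol replicates 1 and 2. Both migrasome libraries were well above both cytosol libraries, with a log2 difference of 2.47 ± 0.24 (SE). Gm24514 (chromosome 18, 55622636 to 55622920, minus strand) stood at 1512 and 1664 in migrasome, against 313 and 230 in cytosol, a difference of 2.56 ± 0.22. These models differed from each other by less than the spread between libraries in their log2 difference.

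The other 3 7SL-like models were far lower. Gm23153 (chromosome 1, 190482845 to 190483157, minus strand) had values of 42.4 and 79.0 in migrasome and 14.7 and 8.92 in cytosol, a log2 difference of 2.24 ± 0.43. Gm24105 (chromosome 5, 149247952 to 149248244, minus strand), the complete copy, had 38.2 and 38.2 in migrasome and 5.43 and 4.12 in cytosol, a difference of 2.77 ± 0.43. Its symbol is shared in GENCODE by an overlapping shorter miRNA gene and in RefSeq by a longer lncRNA, so its row may hold reads of those as well. GENCODE also places miRNA genes of other symbols on the same strand within Gm22701, Gm23153, Rn7s1, Rn7s2 and Rn7s6. None of those miRNA symbols is among the deposited gene symbols, and the part of these miRNA genes in the values was not tested. Gm22701 (chromosome 8, 110498852 to 110499142, plus strand) had 11.3 and 10.5 in migrasome and 2.33 and 1.37 in cytosol, which are 8 and 8 against 3 and 2 reads. Its ratio of summed normalised reads was 5.99, with an exact 95% interval of 2.10 to 20.9 that covers counting error only, as do all intervals given here. In each of the 3 the groups did not overlap, and the replicates of Gm23153 in migrasome differed most.

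The most abundant 7SK-like model was Gm24447, the copy identical to 7SK over 241 bases. It stood at 26.9 and 43.4 in migrasome replicates 1 and 2, against 180 and 209 in cytosol replicates 1 and 2, or 19 and 33 against 232 and 305 reads. Both cytosol libraries were high and both migrasome libraries low, with a log2 difference of -2.47 ± 0.30. The ratio of summed reads, migrasome over cytosol, was 0.181 (exact 95% interval 0.134 to 0.241).

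The other 4 7SK-like models had far fewer reads in both groups, with 1 to 5 in each migrasome library and 15 to 33 in each cytosol library. Gm24146 (chromosome 5, 139844930 to 139845250, plus strand) had 2 and 5 reads in migrasome and 29 and 33 in cytosol, or values of 2.83 and 6.58 against 22.5 and 22.6. Gm22058 (chromosome 12, 69930904 to 69931213, plus strand) had 2 and 2 reads in migrasome and 21 and 32 in cytosol, or values of 2.83 and 2.63 against 16.3 and 21.9. Gm26035 had 1 and 3 reads in migrasome and 23 and 25 in cytosol, and values of 1.41 and 3.95 against 17.8 and 17.1. The migrasome counts of these models lie near 3 reads, the most that a count of 0 allows, which is a value of 4.24 and 3.95 in migrasome replicates 1 and 2. Gm23973 (chromosome 7, 103271550 to 103271870, plus strand) had 1 and 1 reads in migrasome and 15 and 18 in cytosol, with values of 1.41 and 1.32 against 11.6 and 12.3. The migrasome over cytosol ratios of these 4 models were 0.211, 0.141, 0.156 and 0.113 in the same order, with exact 95% intervals of 0.0816 to 0.462, 0.0371 to 0.384, 0.0409 to 0.426 and 0.0132 to 0.444. The intervals overlap each other, so the sizes of the 4 decreases could not be told apart at this depth.

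**Figure D2:**
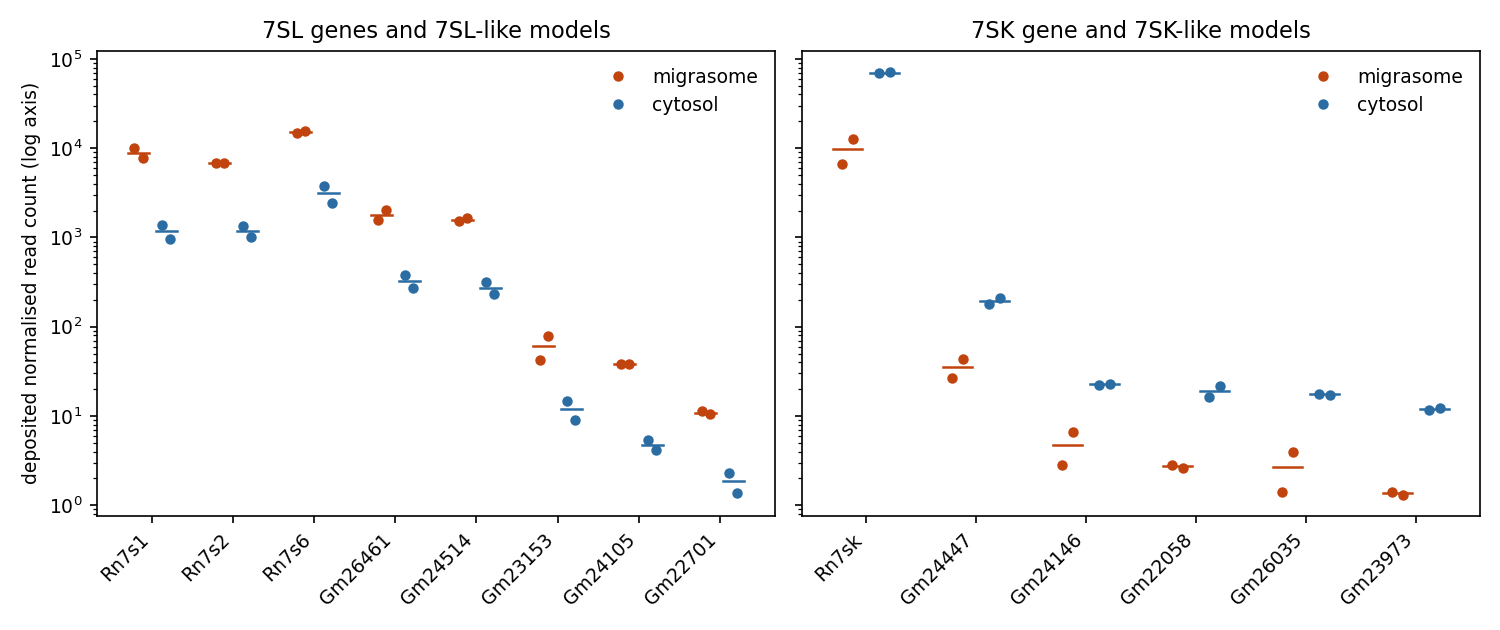
Deposited normalised read counts on a log axis for the named 7SL genes with the 5 7SL-like models and for Rn7sk with the 5 7SK-like models, with 1 point per library and a bar at the mean of 2 libraries. Migrasome (orange) lies above cytosol (blue) for every gene on the left, from Gm26461 at 1564 and 2045 against 383 and 272 down to Gm22701, and below it for every gene on the right.

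Within each class the log2 differences of the models were alike in size. They ran from 2.08 in Gm22701 to 2.77 in Gm24105 for the 7SL-like models and from -2.47 in Gm24447 to -2.13 in Gm24146 for the 7SK-like models, with medians of 2.47 and -2.42 beside -0.00430 over all tested genes. Adding 5 in place of 1 before taking the log brought the differences of 6 models closer to 0 by more than 1.5 times as a fold. These were Gm22701 (1.22), Gm24105 (2.15), Gm23973 (-1.42), Gm24146 (-1.53), Gm26035 (-1.57) and Gm22058 (-1.63). Only 3 models, Gm24514, Gm26461 and Gm24447, had a value of at least 10 in all 4 libraries. Another 6 were under 10 in both libraries of their lower group and passed the filter of 10 in at least 2 libraries only through the group where they were high, so that a difference between the groups was built into their passing. Gm23153 was under 10 in cytosol replicate 2 alone.

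The genes named for 7SL and 7SK moved the same way as their copies. The copies were picked by their direction, so this match is not independent support. Rn7s1 and Rn7s2 have the same sequence, so their 2 rows may not be separate measurements. Rn7s1 (chromosome 12, 69159295 to 69159594, plus strand) stood at 10143 and 7665 in migrasome, against 1380 and 955 in cytosol (log2 difference 2.94 ± 0.25, limma adjusted p = 0.00036). Rn7s2 stood at 6754 and 6901 in migrasome, against 1333 and 1010 in cytosol (2.56, limma adjusted p = 0.00036). Rn7s6, the partly aligned copy with a name, stood at 14982 and 15752 in migrasome, against 3786 and 2441 in cytosol (2.34, limma adjusted p = 0.00054). Rn7sk stood at 6647 and 12733 in migrasome, against 69225 and 71563 in cytosol (-2.94 ± 0.34, limma adjusted p = 0.00055). The 7SL-like models lay below Rn7s1 by between 0.17 and 0.86 on the log2(value + 1) scale, but on either side of Rn7s2 and of Rn7s6. The 7SK-like models were smaller in size than Rn7sk by between 0.46 and 0.81. These gaps were not tested, and the added 1 shrinks the low models most.

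**Figure D3:**
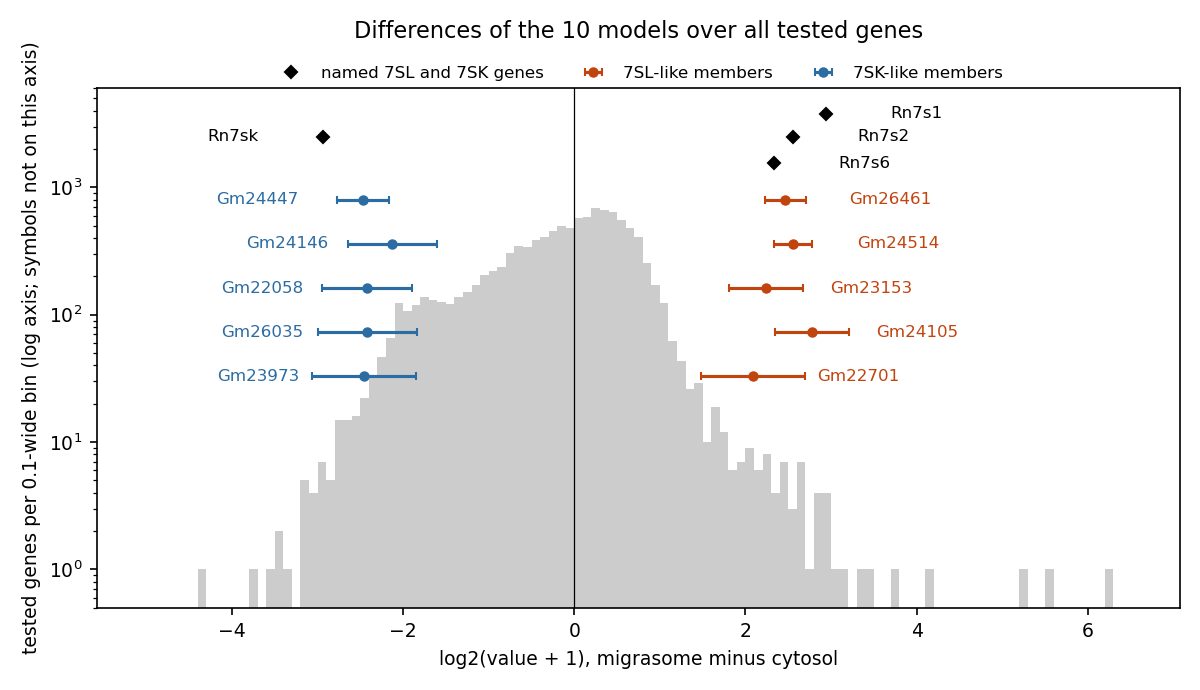
The grey histogram counts the 10860 tested genes by their log2(value + 1) difference, migrasome minus cytosol, on a log axis; the points and SE bars above it mark the 10 models and the diamonds the named genes, placed at arbitrary heights. The 7SL-like models sit between 2.08 and 2.77 with Rn7s1, Rn7s2 and Rn7s6, and the 7SK-like models between -2.47 and -2.13 with Rn7sk at -2.94.

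Per kilobase of annotated length the copies held very different shares of the parent's level. Gm26461 was at 21.0% of the Rn7s1 level per kilobase in migrasome and 29.0% in cytosol, and Gm24514 at 18.8% and 24.5%. Reads of Rn7s1 cannot be told apart from those of Rn7s2, and over the reads on Rn7s1, Rn7s2, Rn7s6 and the model itself the groups overlapped. By that measure Gm26461 held 4.68% and 6.32% in migrasome and 5.57% and 5.82% in cytosol, and Gm24514 held 4.53% and 5.20% in migrasome and 4.60% and 4.96% in cytosol. Gm23153, Gm24105 and Gm22701 were at 0.653%, 0.439% and 0.126% of the Rn7s1 level per kilobase in migrasome and at 0.971%, 0.418% and 0.163% in cytosol. Every 7SK-like model was under 1% of Rn7sk, with Gm24447 the highest at 0.355% in migrasome and 0.271% in cytosol. The other 4 lay between 0.0145% and 0.0501% in migrasome and between 0.0176% and 0.0331% in cytosol. The 5 7SL-like models thus held a far larger part of their family's counted reads than the 5 7SK-like models did. Among annotated transcripts, no window of 50 bases was unique to Rn7s1 or to Rn7s2, whereas 90 were unique to Rn7sk. How multiply mapping reads were counted is not known, and its part in this contrast was not tested.

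Counted in reads, the split between copies and named genes was similar in both kinds of sample. The 5 7SL-like models had 2240 and 2915 reads in migrasome replicates 1 and 2, or 9.04% and 11.2% of the reads on them and on Rn7s1, Rn7s2 and Rn7s6 together. In cytosol replicates 1 and 2 they had 927 and 753 reads, or 9.96% and 10.5%. The cytosol shares lay between the migrasome shares. The 5 7SK-like models had 25 and 44 reads in migrasome, or 0.529% and 0.453% of the reads on them and Rn7sk, against 320 and 413 reads in cytosol, or 0.357% and 0.394%. Both migrasome shares were higher, but the exact 95% interval of migrasome replicate 1, 0.343% to 0.780%, and that of replicate 2, 0.329% to 0.607%, each reached into those of the cytosol libraries, 0.319% to 0.399% and 0.357% to 0.434%. For Gm24447 alone the shares were 0.403% and 0.340% in migrasome and 0.259% and 0.291% in cytosol. As shares of all reads on genes, Rn7s1, Rn7s2 and Rn7s6 held 0.431% and 0.445% in migrasome and 0.111% and 0.0746% in cytosol, while Rn7sk held 0.0899% and 0.187% in migrasome and 1.19% and 1.21% in cytosol.

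**Figure D4:**
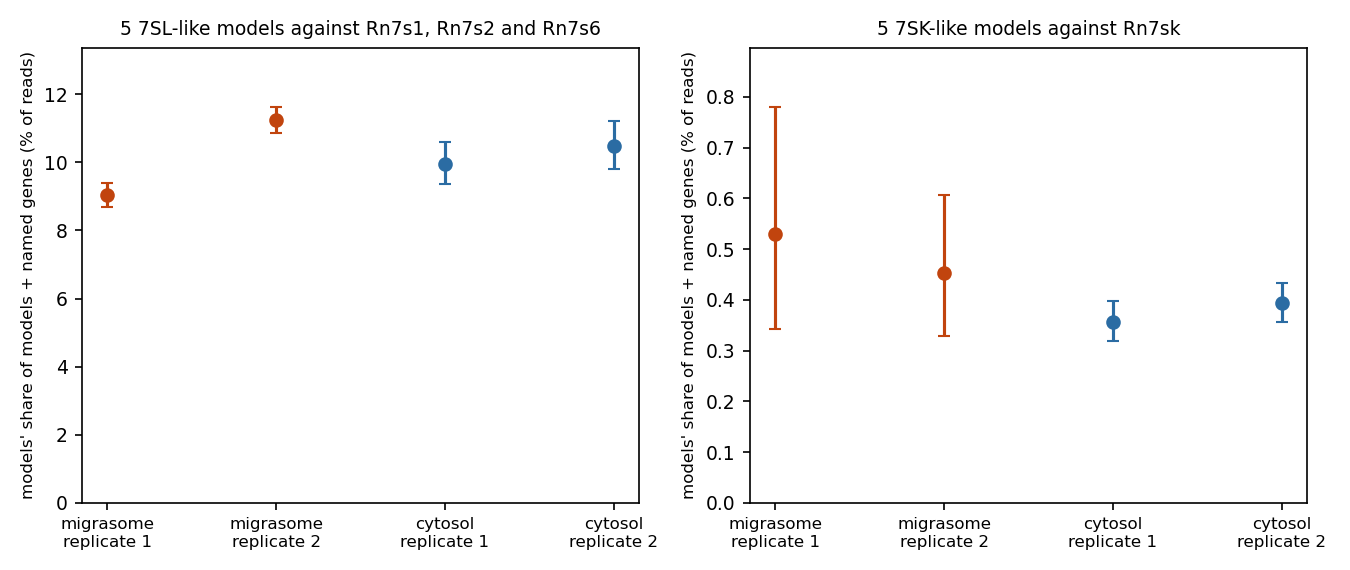
Reads on the 5 7SL-like models (left) and the 5 7SK-like models (right) as a percentage of the reads on them and on their named genes, with 1 point per library and exact 95% binomial intervals. The shares are 9.04% and 11.2% in migrasome and 9.96% and 10.5% in cytosol on the left, and 0.529% and 0.453% in migrasome and 0.357% and 0.394% in cytosol on the right.

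The copies outside the 10 had few reads or none, as the choice of the 10 by their values would also give. By the same alignment, 11 unnamed models were 7SL-like and 190 were 7SK-like. Besides the 10 described, 6 7SL-like models held 13 reads over all 4 libraries and 185 7SK-like models held 28 reads. None of these 191 reached the value of 10 in at least 2 libraries, so none was tested in either direction. Of the 185, 179 were listed at 0 in every library. The nearest to the filter was Gm26315, which is 99.6% identical to Rn7sk over its aligned stretch. It had 1 and 1 reads in migrasome and 9 and 8 in cytosol, a migrasome over cytosol ratio of 0.220 (exact 95% interval 0.0247 to 0.928). Among the other 7SL-like models Gm22567 led with 6 and 2 reads in migrasome and 0 and 0 in cytosol, followed by Gm25687 with 0 and 3 in migrasome and 0 and 0 in cytosol. Gm25318, at 70.9% identity to Rn7sk, had 1 and 2 reads in migrasome and 0 and 1 in cytosol.

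With the 10 chosen models included, reads lay mostly on copies close to the parent. Of the 12 7SK-like models with at least 90% identity, 8 had a read, together 823 reads, and of the 178 with less, 3 had a read, together 7. Of the 5 7SL-like models with at least 90% identity all had a read, together 6815 reads, and of the 6 with less, 4 had a read, together 33. Another 4 7SK-like models with at least 90% identity were listed at 0, and Gm26315 at 99.6% had 19 reads in all. The 10 models were chosen by their values and held 6835 of the 6848 7SL-like reads and 802 of the 830 7SK-like reads. Of the other 7SK-like models, 3 of 7 with at least 90% identity had a read, beside 3 of 178 with less. Of the other 7SL-like models 4 had a read, 1 of them with at least 90% identity. These others held only 28 and 13 reads.

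**Figure D5:**
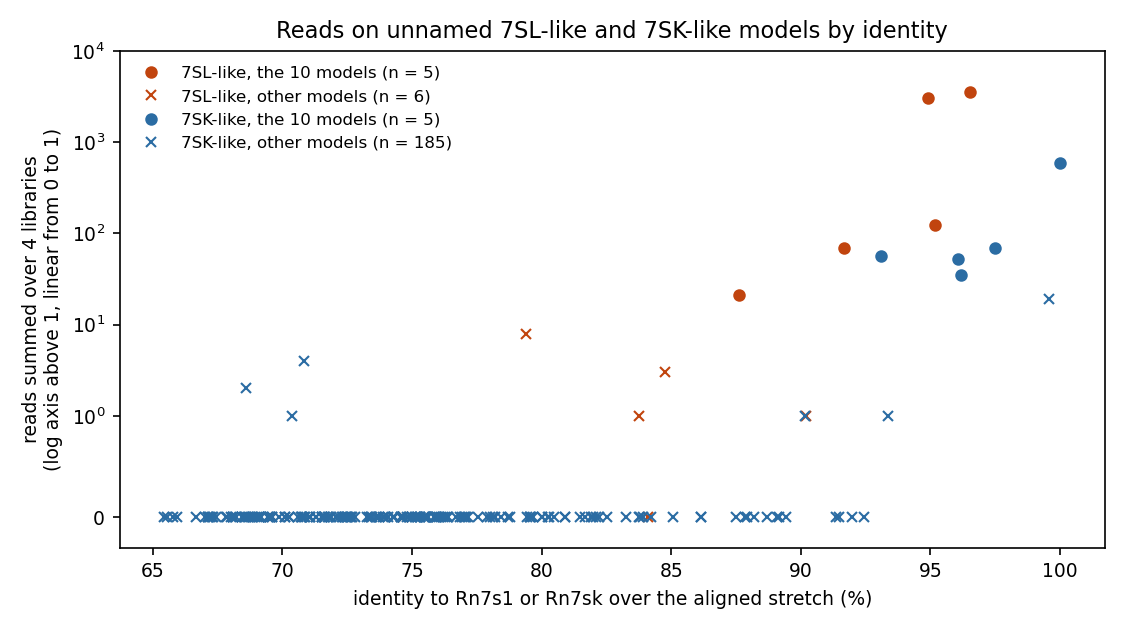
Each symbol is an unnamed model, placed by its identity to Rn7s1 or Rn7sk over the aligned stretch (percent) and by its reads summed over 4 libraries (log axis above 1), with circles for the 10 models and crosses for the other 6 7SL-like and 185 7SK-like models. Nearly all crosses lie at 0, and the highest of them near the right edge is Gm26315 with 19 reads.

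Of the 10 models, 3 lie inside an intron of a protein-coding gene on the same strand. Hydin, which holds Gm22701, was listed at 0 in all 4 libraries. Zfp949, which holds Gm26461, stood at 18.4 and 11.8 in migrasome, against 27.9 and 29.5 in cytosol, values well under those of the model itself and in the opposite direction, without passing the limma test (adjusted p = 0.11). Atl1, which holds Gm22058, stood at 8.49 and 11.8 in migrasome, against 19.4 and 15.8 in cytosol, also without passing (limma adjusted p = 0.23). For the other 7 models GENCODE M21 places no protein-coding gene over them on either strand.

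The mRNAs of the proteins that bind these RNAs were mixed in direction. Of 8 tested genes for signal recognition particle proteins and its receptor, 1 passed as higher and 2 as lower, beside 8.68% and 17.7% of all tested genes, with a median log2 difference of 0.30. The lower ones were the membrane-bound receptor subunits Srpr, at 235 and 246 in migrasome against 812 and 953 in cytosol (-1.87), and Srprb, at 124 and 163 against 604 and 550 (-2.01), each with a limma adjusted p of 0.00054 or 0.00055. The higher one was Srp9, which binds the Alu domain of 7SL, at 1219 and 1231 in migrasome against 782 and 835 in cytosol. Its call was narrow (limma adjusted p = 0.046) and was lost in 6 of 14 alternative settings, with adjusted p from 0.082 to 0.32, among them the fits without either cytosol library. Its partner Srp14 stood at 1601 and 1140 in migrasome and 799 and 912 in cytosol and missed the threshold (limma adjusted p = 0.055).

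Of 7 tested genes for proteins of the 7SK particle, 1 passed as lower, beside 17.7% of all tested genes, and none as higher, with a median log2 difference of -0.49. A share of 1 in 7 is near that of all genes. It was Hexim1, the inhibitor that 7SK brings to P-TEFb, at 84.9 and 109 in migrasome against 178 and 200 in cytosol (-0.97, limma adjusted p = 0.020), and the call was lost without either cytosol library and with quantile normalization (adjusted p from 0.073 to 0.16). Larp7, which binds the 3′ end of 7SK, stood at 368 and 243 in migrasome and 207 and 174 in cytosol and missed the threshold (limma adjusted p = 0.083), though it passed in 3 alternative settings.

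Other short RNAs went either way. Of the 8 listed, 5 passed as higher and 3 as lower, beside 8.68% and 17.7% of all tested genes. This list, like the others, was chosen with earlier results of these data known, and it includes the 7SL genes Rn7s2 and Rn7s6. Its counts are therefore a description only. The Y RNAs Rny1 (2.13) and Rny3 (2.61), partners of the Ro protein, and the vault RNA Vaultrc5 (1.54), a part of cytoplasmic vault particles, were higher, together with Rn7s2 and Rn7s6. The telomerase RNA Terc (-3.45), the RNase P RNA Rpph1 (-1.77) and the RNase MRP RNA Rmrp (-1.53), which act mainly in the nucleus, were lower. The Rmrp call was lost without cytosol replicate 1, and the Rpph1 call without either cytosol library and with no filter (limma adjusted p between 0.068 and 0.11 for the lost calls). Among nuclear long RNAs, Malat1 stood at 5102 and 3882 in migrasome, against 10534 and 5593 in cytosol, and Neat1 at 260 and 237 against 728 and 278, and none of the 4 tested passed the limma test. Malat1 passed as lower in 6 alternative settings and Neat1 in 4. The nuclear RNAs were measured in both kinds of sample, and their part in the values of the 7SK-like models was not tested.

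The genes whose pattern over the 4 libraries was most like the mean profile of the models were found by the Euclidean distance of log2(value + 1) centred per gene, over 8301 named genes with a mean of at least 50. For the 7SL-like profile the 5 nearest were mt-Nd4 (distance 0.124), a mitochondrially encoded subunit of respiratory complex I, Rn7s6 (0.191), the filopodial myosin gene Myo10 (0.207), Rn7s2 (0.219) and the inositol phosphatase gene Inpp1 (0.313). Rn7s1 ranked 21. For the 7SK-like profile they were Mfge8 (0.112), which encodes a secreted glycoprotein, Adpgk (0.118), an ADP-dependent glucokinase, Adm (0.123), the precursor of a secreted peptide, Arl6ip1 (0.134), a protein of the endoplasmic reticulum membrane, and Chpf (0.143), a chondroitin polymerising factor of the Golgi. Rn7sk ranked 323. Many genes share such a profile over 4 libraries, and the ranks are a description only.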

How the data were processed

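Libraries of mouse total RNA, 2 from migrasomes and 2 from cytosol, were grouped by their titles. The deposited signal is 1 normalised read count for each gene symbol, scaled by the authors with DESeq, per the labels' tools and the table itself. The submitters' processing notes also name cutadapt, Trimmomatic, FastQC, STAR, HTSeq and the build GRCm38, with no versions. Annotation, strand use and handling of multiple mapping are not stated there, so overlapping genes and near-identical copies are uncertain. Dividing each library by the worth of 1 read gave whole reads for 100% of values (tolerance 0.001).

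Genes reaching 10 in 2 or more libraries were fitted with limma 3.58.1 (R 4.3.3, trended eBayes) on log2(value + 1) with no replicate block and Benjamini-Hochberg adjustment at 0.05. An exact permutation test of 2 against 2 cannot go below p = 0.333. On the recovered reads, edgeR 4.0.16 called 1070 genes higher and 2064 lower, and DESeq2 1.42.0 was a further alternative. The limma fit was also run on simulated data. That simulation gave every gene the same dispersion, so it does not show how the fit behaves on these libraries. Models were aligned with blastn 2.17.0 (plus strand, E at most 1e-10) and classed where the hit covered at least 50% of the model. Replicates differed beyond sampling noise, with a chi-square per degree of freedom of 27.9 in migrasome and 17.6 in cytosol. Named genes are the 10 models, Rn7s1, Rn7sk, the most abundant other copies, list members, the 5 nearest profiles per class and genes that contain a model. The bases of the 7SL-like models are not reported here. The members and lists were chosen with earlier results of these data known.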

Additional observations from a re-analysis of the deposited data

How the results depend on the processing

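All 10 models kept their direction in every setting in which they were tested, 14 alternatives for Gm24514, Gm26461 and Gm24447 and 13 for the others. This is no support for the directions, because the models were chosen by them. The 2 groups of each model did not overlap, as in 33.3% (above) and 36.3% (below) of tested genes. Settings that keep the deposited values or leave out 1 library therefore could not reverse a direction. Their log2 differences ranged from 1.22 to 3.33 for the 7SL-like and from -3.11 to -1.42 for the 7SK-like models. With a minimum mean of 50 only 3 of the 10 were tested. This contrast chose the models, so counts of their calls test nothing: 10 in the main setting, 6 with DESeq2 (beside 1140 higher and 1599 lower of 10860 genes), 9 with no filter and 5 without either cytosol library. Requiring the alignment to cover at least 80% of the model left 2 of the 10 in a class, Gm24105 and Gm24514. Rn7s1 and Rn7sk passed in all 14 alternatives. The count of genes higher in migrasome, 943 in the main setting, was 393 with no filter, 322 with the same total per library, 483 with eBayes without a trend and 1802 with a replicate block. Leaving out 1 library gave 231 to 2085 higher and 1147 to 2800 lower, against 943 and 1919. The low counts came without a cytosol library, with 286 and 231 higher and 1147 and 1183 lower without cytosol replicates 1 and 2, and the 2085 higher without migrasome replicate 2. The cause was not tested. Deviations of same-numbered libraries from their group means correlated at 0.226 over 10860 genes, but no label ties equal numbers to a shared culture or day. With 2 libraries a group the block leaves every limma difference as it was and says nothing of direction. Gm22701, Gm24105, Gm24146, Gm22058, Gm26035 and Gm23973 had 1 to 7 reads per library in their lower group, so depth limits their sizes. The other 7SL-like and 7SK-like models did not pass the filter, so in the main setting none was tested.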
